A study of Homo sapiens with 7 samples.

Results

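Long noncoding RNAs and microRNA host genes were read out of 6 poly(A) 3′ end libraries of HCT116, an established line of human colorectal carcinoma cells. All 6 came from DROSHA-KO cells, in which the gene for DROSHA was knocked out. They had been transfected with miR-148a-3p (3 libraries) or with a control miRNA whose sequence the labels do not give (3 libraries). RNA was collected 48 h later, and reverse transcription of 500 ng of it started from oligo-dT. A small RNA library of wild-type HCT116 cells, with no replicate and no miRNA transfection in its labels, was used for the microRNAs inside host genes. No wild-type mRNA library was used here, so levels in the knockout could not be set against levels with DROSHA. The labels do not say whether the DROSHA-KO cells are 1 clone nor whether its replicates were grown apart. P-values therefore rest on differences among these libraries alone, and those may be technical.

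The RNAs were chosen by name and by total counts. Of 15659 gene symbols, 837 were MALAT1, NEAT1 or GAS5 or had a LINC, SNHG, MIR-host or antisense name, and 167 of these had 30 or more counts over the 6 libraries. The other 670 had fewer. The 167 were put into 5 classes by name: 2 nuclear-body RNAs (MALAT1 and NEAT1), 21 small nucleolar RNA (snoRNA) host genes, 19 microRNA host genes, 85 antisense RNAs and 40 long intergenic (LINC) RNAs. RefSeq's tables for GRCh38.p14 held 157 of them under the same symbol and listed 9 as synonyms of another symbol. BCAN-AS1 had no entry, and 166 were annotated as long noncoding RNA. BSG-AS1, LINC02832, NOP14-AS1, PANK2-AS1 and RALY-AS1 lay just inside the limit with 30 counts each, and SNAI3-AS1, SNHG26, TTN-AS1, UBA6-AS1 and ZBED5-AS1 lay just outside it with 29 each.

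MALAT1 gathers in nuclear speckles, where splicing factors are stored, and NEAT1 is the scaffold RNA of paraspeckles. Host genes are transcripts that carry smaller RNAs inside them. SnoRNAs are cut from introns of SNHG genes and of GAS5 and then guide chemical modification of ribosomal RNA, while the spliced host is exported and often degraded by nonsense-mediated decay. MicroRNA host transcripts are cut by DROSHA, with its partner DGCR8, to release hairpins from which DICER1 makes mature microRNAs. Antisense RNAs run against, or start beside, the gene they are named after.

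The most counted microRNAs inside the host genes in wild-type cells, down to let-7b-5p with 6656 counts, are shown first, beside the transfected one, because their seeds (bases 2 to 8, in capitals) set which messages they bind. The sequences are RefSeq's mature sequences.
hsa-miR-148a-3p: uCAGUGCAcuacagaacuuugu
hsa-miR-100-5p: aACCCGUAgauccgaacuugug
hsa-let-7a-5p: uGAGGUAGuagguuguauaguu
hsa-let-7f-5p: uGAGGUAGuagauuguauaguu
hsa-let-7b-5p: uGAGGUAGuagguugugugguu
hsa-miR-92a-3p: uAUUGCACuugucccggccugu
hsa-miR-17-5p: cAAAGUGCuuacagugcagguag
hsa-miR-20a-5p: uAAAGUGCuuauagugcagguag
hsa-miR-24-3p: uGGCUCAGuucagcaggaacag
hsa-miR-27a-3p: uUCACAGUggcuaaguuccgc
hsa-miR-125b-5p: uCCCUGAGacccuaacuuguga
hsa-miR-9-5p: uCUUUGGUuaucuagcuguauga
hsa-miR-221-3p: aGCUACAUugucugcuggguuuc
hsa-miR-222-3p: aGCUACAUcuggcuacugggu

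The 67 mature names found inside the host genes included 0 with the seed of miR-148a-3p. The let-7 names from the 5p arms in MIR100HG, MIRLET7A1HG and MIRLET7BHG shared 1 seed, GAGGUAG. The seed GCUACAU was shared by miR-221-3p and miR-222-3p of MIR222HG. Within MIR17HG, miR-17-5p and miR-20a-5p shared AAAGUGC.

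Depth was low. The miR-148a-3p libraries held 1564125, 842294 and 630142 counts, and the control libraries 1069154, 876131 and 890849. Levels are CPM values, counts scaled by library size with TMM factors. Since oligo-dT priming places reads near the 3′ end, counts were not divided by transcript length. Of the colon epithelium markers 10 of 14 were counted, and KRT20, CDX1, CEACAM5 and TFF3 were listed in none of the libraries. These markers summed to 2888, 1448 and 1068 counts with miR-148a-3p and to 2134, 1554 and 1719 with the control. Among them KRT8, an epithelial keratin, had a log2 fold change, miR-148a-3p over control, of −0.55 (SE 0.21, edgeR adjusted p = 0.626). Blood cell markers summed to 14, 2 and 0 counts with miR-148a-3p and to 5, 1 and 3 with the control, and 10 of those 12 were at 0. Markers of fibroblasts and endothelium came to 83, 28 and 39 counts with miR-148a-3p and to 85, 34 and 55 with the control, with COL1A2, DCN, LUM, CDH5 and KDR at 0. DROSHA itself was still counted, at 17.4 ± 4.12 CPM with miR-148a-3p and 22.2 ± 6.60 CPM with the control (SD, n = 3 each). The deleted part of the gene is not named in the labels, and reads from its 3′ end test neither the knockout nor the grouping.

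Together the 167 RNAs took 2.29%, 1.78% and 1.91% of all counts with miR-148a-3p and 2.54%, 2.43% and 2.13% with the control. MALAT1 and NEAT1 held 61.9% of the counts of all 167, snoRNA host genes 22.1%, antisense RNAs 8.40%, microRNA host genes 4.60% and LINC RNAs 3.10%. The median member of the antisense class had a mean of 9.78 CPM and the median LINC RNA 10.2 CPM, against 90.6 CPM for the median snoRNA host gene. These levels follow from a choice made on counts and are a description.

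**Figure D1:**
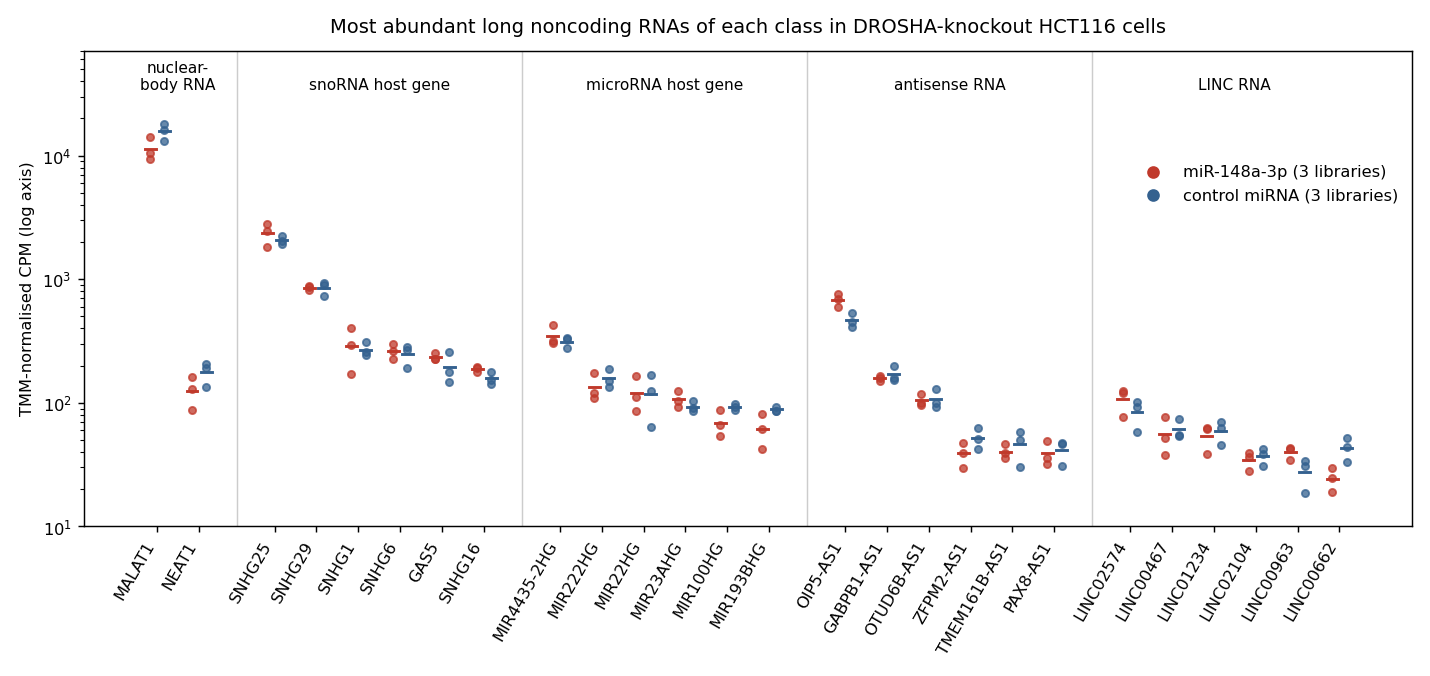
TMM-normalised CPM (log axis) of up to 6 most abundant RNAs of each class; points are single libraries (red, miR-148a-3p; blue, control miRNA) and bars are means of 3. MALAT1 lies above every other RNA shown in each library, at 9334 to 14202 CPM with miR-148a-3p and 13067 to 17970 CPM with the control.

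For the comparison of miR-148a-3p with the control miRNA, 89 of the 167 RNAs had enough counts to be tested in the edgeR fit of all 8921 tested genes, and 0 of the 89 passed an adjusted p of 0.05. Of all genes tested, 0.0112% passed, which is the single gene MORF4L1. DESeq2 and limma-voom also called 0 of the 89. At an unadjusted p under 0.05, 4 of the 89 were lower with miR-148a-3p (MALAT1, NEAT1, SNHG7 and LINC00662), a share of 4.49% where 3.4% of all genes tested were lower. On the higher side it was 1 of 89 (OIP5-AS1), a share of 1.12% where 3.4% of all genes tested were higher. The groups did not overlap for 8 RNAs that were lower with miR-148a-3p (8.99%, against 6.59% of all genes tested) and for 5 that were higher (5.62%, against 6.22%). These shares are near those of the whole table. The median log2 fold change of the 89, miR-148a-3p over control, was −0.01, with 45 below 0 and 44 above. The 78 others were left out by the filter on low counts.

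**Figure D2:**
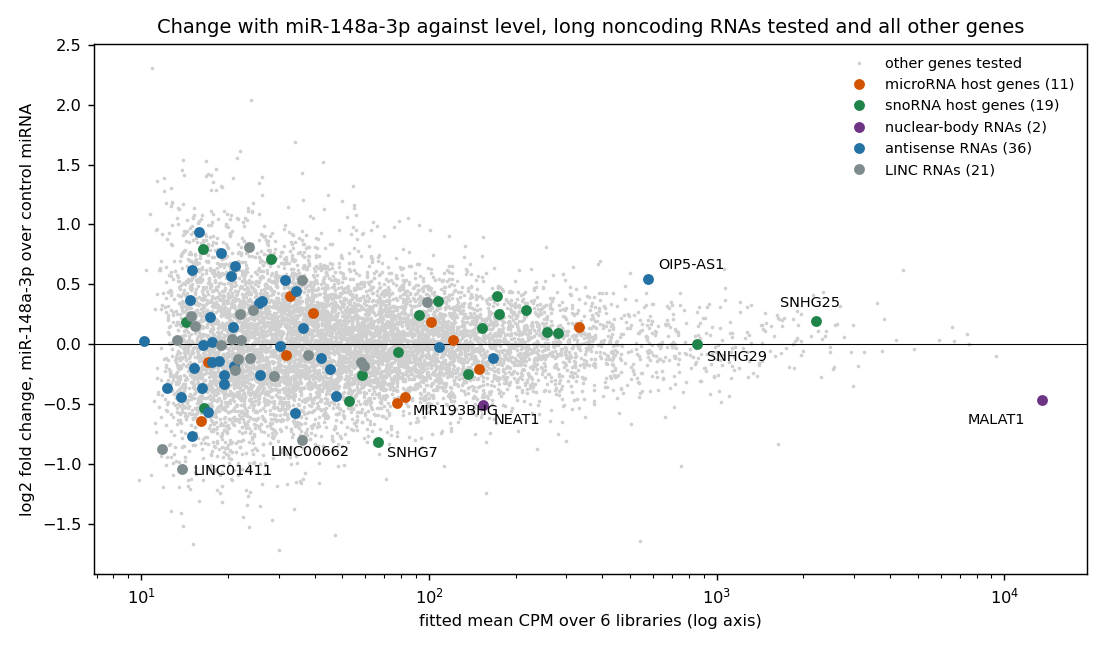
Log2 fold change, miR-148a-3p over control miRNA, against fitted mean CPM over the 6 libraries (log axis) for the 89 long noncoding RNAs tested (large points, coloured by class) and all other genes tested (grey). MALAT1, NEAT1, SNHG7 and LINC00662 lie below 0 and OIP5-AS1 above, and 0 of the 89 passed an edgeR adjusted p of 0.05.

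The size of change that could be seen depended on the level. The standard error (SE) of the log2 fold change had a median of 0.52 over the 37 tested RNAs under 20 CPM, 0.33 over the 34 from 20 to 100 CPM and 0.20 over the 18 at 100 CPM or more.

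MALAT1 (chromosome 11, 65497738 to 65506516, plus strand) was the most abundant gene of every library. It was at 14202, 9334 and 10535 CPM with miR-148a-3p, against 17970, 16073 and 13067 CPM with the control. The groups overlapped, since miR-148a-3p replicate 1 lay above control replicate 3. Its log2 fold change was −0.47 (SE 0.17, 95% interval −0.81 to −0.13), a level of 0.723 of the control, and the edgeR adjusted p was 0.563. In each group MALAT1 was highest in replicate 1, the library with the most counts of its group; the part of depth in the result was not tested. With 1 library left out, the fold change lay between −0.66 and −0.34. MALAT1 ends in a genomic A-rich stretch and not in a poly(A) tail, and oligo-dT can prime there.

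NEAT1 (chromosome 11, 65422798 to 65445540) lies beside MALAT1 and was far less abundant in these poly(A) libraries. It was at 129, 87.6 and 161 CPM with miR-148a-3p, against 135, 208 and 191 CPM with the control. The 2 groups overlapped here as well. Its log2 fold change came to −0.51 (SE 0.23; edgeR adjusted p = 0.709), and with 1 library left out it ran from −0.70 (without miR-148a-3p replicate 3) to −0.30 (without miR-148a-3p replicate 2). Its short isoform is polyadenylated, while the long isoform that builds paraspeckles is not, and which of them the reads came from was not tested. In bulk RNA such as this, fewer cells that make an RNA and less RNA per cell cannot be told apart.

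The mRNAs of paraspeckle and speckle proteins were set beside MALAT1 and NEAT1. Of 21 tested, 11 had lower and 10 higher fitted values with miR-148a-3p, and 0 were called. SRRM2, a scaffold protein of nuclear speckles, was at 425, 400 and 389 CPM with miR-148a-3p, against 598, 488 and 523 CPM with the control (log2 fold change −0.41, SE 0.17, edgeR adjusted p = 0.681). NONO, a core paraspeckle protein, was at 384, 456 and 364 CPM with miR-148a-3p, against 308, 305 and 296 CPM with the control (0.41, SE 0.18, adjusted p = 0.681). The groups did not overlap for either mRNA, and the 2 differed in direction. They were the 2 of 21 with an unadjusted edgeR p under 0.05, a choice that favours separate groups. Of all genes tested, 6.59% lay lower and 6.22% higher without overlap.

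**Figure D3:**
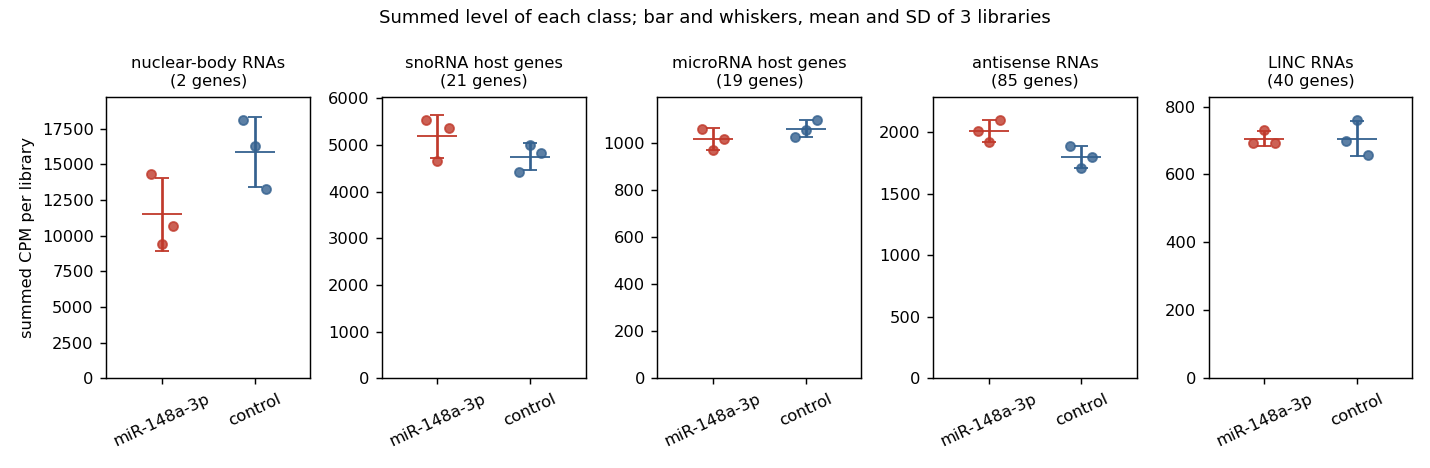
Summed CPM of each class in each library; points are libraries, the horizontal bar is the mean and whiskers are the SD of 3 libraries (red, miR-148a-3p, left; blue, control miRNA, right; each axis starts at 0). The groups separate without overlap for antisense RNAs, and overlap for the other 4 classes.

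SnoRNA host genes summed to 5541, 4665 and 5360 CPM with miR-148a-3p, against 4428, 5010 and 4829 CPM with the control, and the groups overlapped. Of 19 tested, 13 had higher and 6 lower fitted values, with a median log2 fold change of 0.14, beside a median of −0.0039 over all genes tested; 0 were called. RefSeq places 53 snoRNA genes inside 18 of the 21 hosts, 32 of them C/D box (SNORD) and 19 H/ACA box (SNORA). GAS5 holds 11 and SNHG1 holds 9, while SNHG25, a gene of 340 bases, holds 1.

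SNHG25, the most abundant host, was at 2789, 1832 and 2448 CPM with miR-148a-3p, against 1918, 2042 and 2238 CPM with the control (log2 fold change 0.19, SE 0.17, edgeR adjusted p = 0.878). SNHG29 was at 879, 820 and 863 CPM with miR-148a-3p and 935, 893 and 734 CPM with the control, with a fold change of 0.00 (SE 0.16, interval −0.34 to 0.34). It had the smallest SE of the 89. GAS5, named for its rise in growth-arrested cells, was at 228, 254 and 227 CPM with miR-148a-3p, against 146, 260 and 176 CPM with the control (0.29, SE 0.21, adjusted p = 0.810). For GAS5 all miR-148a-3p libraries lay between the lowest and the highest control library. SNHG1 averaged 290 ± 116 CPM with miR-148a-3p and 270 ± 33.6 CPM with the control, SNHG6 averaged 264 ± 37.3 and 247 ± 48.3 CPM in the same order, and SNHG16 averaged 188 ± 10.4 and 158 ± 18.6 CPM (SD, n = 3 each). Among these 3, SNHG16 differed most on the log2 scale, by 0.25 (SE 0.19, adjusted p = 0.844).

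SNHG7 (chromosome 9, 136724594 to 136728184, minus strand), which holds 2 H/ACA snoRNA genes, had the lowest p of the class. It was at 47.5, 54.4 and 36.2 CPM with miR-148a-3p, against 47.2, 85.2 and 115 CPM with the control. Control replicate 1 lay inside the range of the miR-148a-3p libraries and the other 2 control libraries lay above it. Its log2 fold change was −0.81 with an SE of 0.29 (edgeR adjusted p = 0.576). Without control replicate 1 it was −1.10 (SE 0.27, edgeR adjusted p = 0.0488). SNHG7 was then the 1 long noncoding RNA called of 103 tested, where 26 of all 9309 genes tested were called. Without control replicate 3, in which SNHG7 was highest, it was −0.49 (SE 0.32, adjusted p = 0.829), and over all libraries left out in turn it ran from −1.10 to −0.49. Control replicate 1 and miR-148a-3p replicate 3 stood at opposite ends of the first principal component (−31.4 and 34.2, against −8.29 to 13.1 for the other 4 libraries, with 29.8% of the variance).

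Other SNHG genes with the smallest p did not pass either. SNHG10 was at 46.1, 43.8 and 34.6 CPM with miR-148a-3p, all below 52.0, 66.5 and 58.0 CPM with the control (−0.48, SE 0.28, edgeR adjusted p = 0.753). SNHG8 was at 135, 101 and 132 CPM with miR-148a-3p, all below 140, 159 and 139 CPM with the control (−0.25, SE 0.21, adjusted p = 0.860). On the higher side SNHG17 was at 13.2, 26.0 and 16.5 CPM with miR-148a-3p, all above 9.63, 10.5 and 11.4 CPM with the control (0.80, SE 0.50, adjusted p = 0.781). These 3 were the hosts whose groups did not overlap. Of the 19 tested, 2 lay lower (10.5%, against 6.59% of all genes tested) and 1 higher (5.26%, against 6.22%). A choice by smallest p favours separate groups. SNHG9 averaged 196 ± 42.6 CPM with miR-148a-3p and 147 ± 27.0 CPM with the control (0.40, SE 0.21, adjusted p = 0.726), and SNHG20 averaged 34.1 ± 11.98 and 20.3 ± 8.88 CPM in the same order (0.71, SE 0.40, adjusted p = 0.746).

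Many snoRNA host genes are known to start, like ribosomal protein genes, with a terminal oligopyrimidine motif, a C followed by a run of C and T. That feature was looked for at the RefSeq start sites, because the counts did not choose on it: a C at the start base followed by 4 bases that are each C or T, on the transcript's strand only. It was found in 5 of 17 snoRNA hosts with a listed start (29.4%), in 5.14% of 27305 genes with a listed start, in 8.14% of 7301 tested genes and in 69.4% of 62 tested genes with RPL or RPS names. MicroRNA host genes had it in 1 of 19, antisense RNAs in 1 of 74 and LINC RNAs in 3 of 30. Only listed start bases were searched, so a motif at a start some bases away was missed. These shares may therefore be too low, and a gene without the motif here may still have it. The 5 hosts are shown with GAS5 and SNHG29, which lack the motif at the listed start base. The window of SNHG29 does open with a run of this form, before its start. In each window 10 bases lie before the start and 20 from it on, and capitals mark the pyrimidine run at the start.
SNHG5: gcacttcggtCTTTTacgtcggccttcgcg
SNHG19: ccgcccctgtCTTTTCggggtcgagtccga
SNHG12: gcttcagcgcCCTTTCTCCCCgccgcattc
SNHG32: cattttagttCTTTTTgcgaagtgggctcg
SNHG4: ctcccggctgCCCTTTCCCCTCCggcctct
GAS5: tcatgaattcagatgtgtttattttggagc
SNHG29: ccttttgtgaggattgggatattccgactc

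The 5 hosts with the motif did not share a direction. SNHG19 had a log2 fold change of 0.36 (SE 0.24) and SNHG5 of 0.14 (SE 0.20), while SNHG12 had −0.07 (SE 0.24), SNHG32 −0.26 (SE 0.28) and SNHG4 −0.53 (SE 0.49), and none passed. SNHG4 lies in the span of MATR3. With the use of strand in counting not given in the sources used here, reads of the 2 cannot be told apart. The same limit holds for other hosts, since 11 of the 21 overlap the span of a counted gene. SNHG20 (145 counts) overlaps SEC14L1 (333 counts), SNHG7 (363 counts) overlaps DIPK1B (86 counts), and GAS5 (1229 counts) overlaps ZBTB37 (123 counts). The window of SNHG5 is chr6:85678714-85678743 on the minus strand of GRCh38, and that of SNHG4 is chr5:139274091-139274120 on the plus strand.

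The mRNAs of proteins that bind snoRNAs and of nonsense-mediated decay factors were measured with the hosts. Of 17 snoRNP protein mRNAs 8 had lower and 9 higher fitted values. Of 16 tested decay factor mRNAs 9 had lower and 7 higher, with 0 called in either list. ZNHIT6, a snoRNP assembly factor, was at 50.1, 31.9 and 16.5 CPM with miR-148a-3p, against 52.0, 67.7 and 59.2 CPM with the control (−0.77, SE 0.32, edgeR adjusted p = 0.674). DKC1, the pseudouridine synthase of H/ACA particles, was at 363, 424 and 482 CPM with miR-148a-3p, against 264, 358 and 339 CPM with the control (0.40, SE 0.18, adjusted p = 0.725). The groups did not overlap for either gene, and their directions differed. These were the 2 of 17 with an unadjusted edgeR p under 0.05, which again favours separate groups. Without overlap lay 6.59% (lower) and 6.22% (higher) of all genes tested.

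MicroRNA host genes summed to 1063, 974 and 1019 CPM with miR-148a-3p, against 1029, 1057 and 1100 CPM with the control, a log2 ratio of −0.06, and the groups overlapped. Of the 19, 11 were tested, 6 with lower and 5 with higher fitted values (median −0.09), and 0 were called. Both groups carry the DROSHA knockout, so the comparison is between miRNAs and not between cells with and without processing.

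MIR4435-2HG (chromosome 2, 111195866 to 111495161) was the most abundant host, at 314, 304 and 425 CPM with miR-148a-3p and 333, 280 and 328 CPM with the control (0.14, SE 0.18, edgeR adjusted p = 0.913). MIR222HG, on the X chromosome, averaged 135 ± 35.9 CPM with miR-148a-3p and 158 ± 27.9 CPM with the control, MIR22HG averaged 120 ± 40.3 and 119 ± 52.5 CPM in the same order, and MIR23AHG averaged 107 ± 16.2 and 93.2 ± 8.44 CPM. The means of these 3 differed by less than the larger SD. The neighbours in this order, from MIR222HG to MIR23AHG, overlapped in their libraries.

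Among the 11 tested hosts, MIR100HG and MIR193BHG were those whose libraries with miR-148a-3p all lay below those of the control. These are 2 of 11 (18.2%), a share of few genes, where 6.59% of all genes tested lay lower without overlap. MIR100HG, which carries miR-100, let-7a-2 and miR-125b-1, was at 65.9, 54.4 and 87.3 CPM with miR-148a-3p, against 98.2, 87.5 and 92.1 CPM with the control (−0.44, SE 0.24, adjusted p = 0.735 with edgeR). MIR193BHG, which carries miR-193b and miR-365a, was at 81.1, 42.6 and 60.9 CPM with miR-148a-3p, against 86.7, 93.3 and 85.3 CPM with the control (−0.50, SE 0.25, adjusted p = 0.726). For MIR100HG the nearest libraries, at 87.3 CPM with miR-148a-3p and 87.5 CPM with the control, were almost level.

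The hosts of 2 let-7 clusters were less abundant. MIRLET7A1HG was at 42.2, 31.9 and 49.4 CPM with miR-148a-3p and 34.7, 28 and 39.8 CPM with the control (0.26, SE 0.31), and MIRLET7BHG was at 48.1, 29.6 and 23.1 CPM with miR-148a-3p and 24.1, 12.8 and 42.1 CPM with the control (0.41, SE 0.39). The value for MIRLET7BHG rested on single libraries, at 0.01 without miR-148a-3p replicate 1, 0.09 without control replicate 2 and 0.90 without control replicate 3. MIR1915HG averaged 27.9 ± 10.1 CPM with miR-148a-3p and 30.4 ± 5.12 CPM with the control. MIR17HG, the transcript of the oncogenic miR-17-92 cluster, averaged 13.5 ± 7.47 CPM with miR-148a-3p and 15.8 ± 9.85 CPM with the control, and MIR31HG averaged 10.0 ± 6.40 and 16.97 ± 1.07 CPM in the same order. All 5 had intervals that spanned 0. The remaining 8 hosts (MIR503HG, MIR210HG, MIR34AHG, MIR181A1HG, MIR762HG, MIR9-1HG, MIR924HG and MIR29B2CHG) were left out by the filter, with means between 3.10 and 11.3 CPM with miR-148a-3p and between 4.12 and 14.3 CPM with the control. Of these MIR503HG lay lower without overlap, at 8.57, 5.92 and 9.88 CPM with miR-148a-3p, against 22.2, 10.5 and 10.2 CPM with the control. That rested on 13, 5 and 6 counts with miR-148a-3p and 23, 9 and 9 with the control. Its log2 fold change in the fit without a filter on low counts was −0.84 (SE 0.60).

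**Figure D4:**
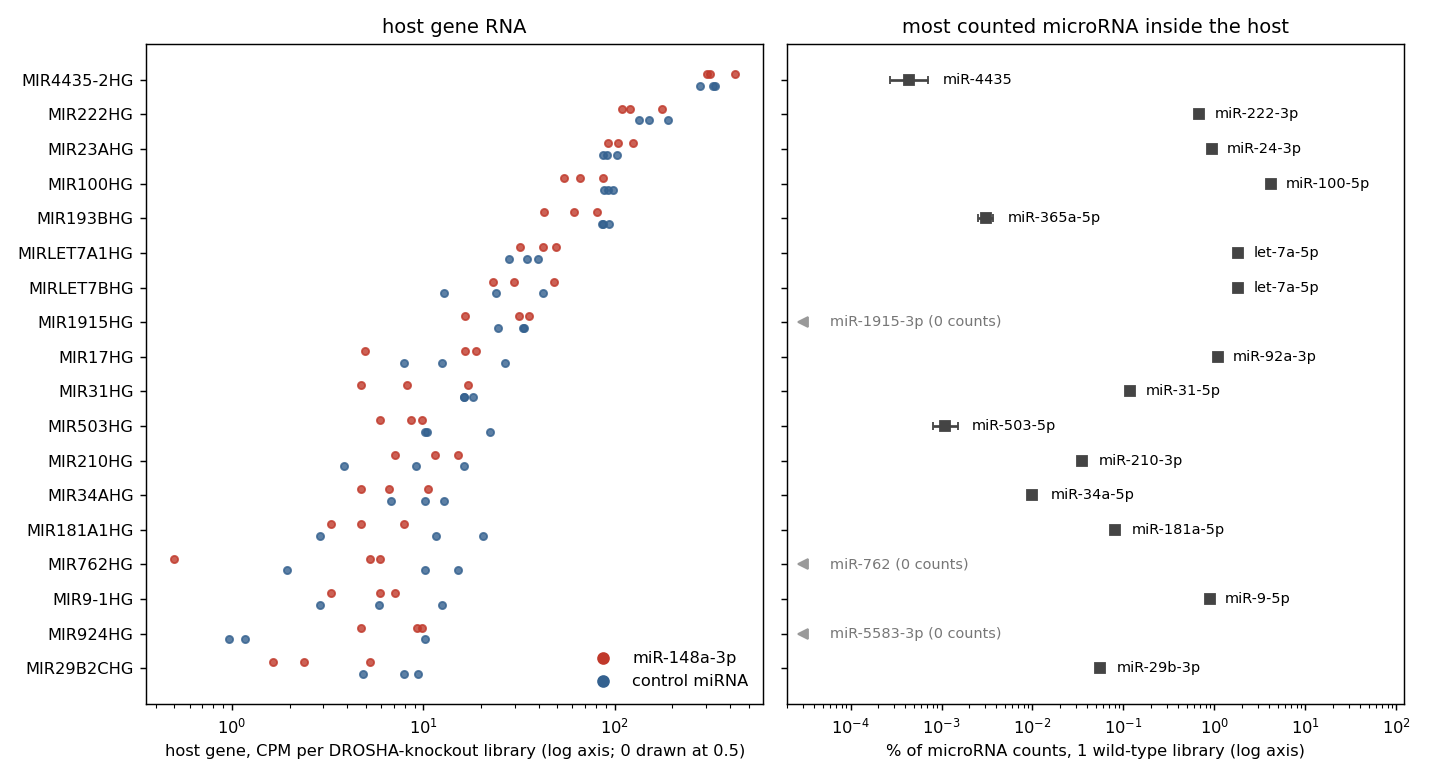
Left, CPM of 18 microRNA host genes per DROSHA-KO library (log axis, 0 drawn at 0.5; red, miR-148a-3p, upper row of each gene; blue, control miRNA, lower row). Right, share of all microRNA counts of the most counted microRNA inside each host in 1 wild-type library (log axis, Wilson 95% whiskers; triangles are 0 counts). MicroRNAs with several loci are drawn with their full counts, let-7a-5p for both MIRLET7A1HG and MIRLET7BHG. MIR4435-2HG, the most abundant host, carries miR-4435 at 16 counts. MIR9-1HG, at 6.26 CPM over the 6 libraries, carries 1 of the 3 loci of miR-9-5p, which was at 0.886% over all loci.

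What these hosts carry was read from the wild-type small RNA library of 3627859 counts. RefSeq places 38 microRNA loci inside 18 of the 19 hosts, on the host's strand, with 67 mature names; MIR22HG had no matching entry, so the counts here do not include it. These names summed to 490680 counts, 13.5% of the library, and 12 of them were at 0. The sum takes in full the 15 names with several loci, some of which lie outside the hosts. The 18 hosts may therefore supply less than 13.5%. Of the 18 hosts, 11 held a name with over 1000 counts. The largest was miR-100-5p of MIR100HG, with 151109 counts, 4.17% of the library (Wilson 95% interval 4.15% to 4.19%), rank 6 among 1023 names. Intervals here cover counting error only, since reads were not collapsed to molecules.

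After it came let-7a-5p at 1.83%, which has 3 loci, in MIR100HG, MIRLET7A1HG and MIRLET7BHG, so that its counts cannot be assigned to 1 host. With 53113 counts let-7f-5p followed, at 1.46%, from MIRLET7A1HG and 1 locus outside the hosts. The sequence of miR-92a-3p, at 1.10%, comes from MIR17HG and from 1 locus outside it, and miR-24-3p, at 0.941%, from MIR23AHG and 1 other locus. For miR-9-5p, at 0.886%, MIR9-1HG is 1 of 3 loci. Divided by the number of loci, let-7f-5p had 26556.5 counts, let-7a-5p 22115.7, miR-92a-3p 19920.5, miR-24-3p 17071 and miR-9-5p 10712.7, so let-7f-5p came before let-7a-5p on that scale. From MIR222HG, which has a locus for each, miR-222-3p was at 0.681% and miR-221-3p at 0.455%.

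The level of a host in the knockout and the share of its microRNA in wild-type cells did not run in the same order. MIR4435-2HG, the most abundant host at 331 CPM over the 6 libraries, carries miR-4435, which had 16 counts. MIR193BHG, at 74.99 CPM, carries miR-365a-5p with 111 counts and miR-193b-3p with 81. MIR17HG, at 14.6 CPM, carries miR-92a-3p with 39841 counts, miR-20a-5p with 7523 and miR-17-5p with 6681. The 2 measures come from cells with and without DROSHA, and the poly(A) libraries miss host RNA that is cut or has no tail, so the values are set side by side without a test. For MIR1915HG, MIR924HG and MIR762HG all names were at 0, which allows a share of up to 8.27e-05% each (3 counts of the total).

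Of the genes that cut primary microRNAs and their partners, 8 were tested, 5 with lower and 3 with higher fitted values, and 0 were called. DROSHA had a log2 fold change of −0.40 (SE 0.43).

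Antisense RNAs, 85 in all, summed to 2008, 1916 and 2099 CPM with miR-148a-3p, against 1884, 1712 and 1795 CPM with the control, and the groups did not overlap. This rested on OIP5-AS1. Without it the class summed to 1409, 1226 and 1339 CPM with miR-148a-3p and 1347, 1303 and 1340 CPM with the control, and the groups overlapped. Of 36 tested, 20 had lower and 16 higher fitted values (median −0.02), and 0 were called.

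OIP5-AS1 (chromosome 15, 41282697 to 41313338, plus strand), also known as Cyrano, is a conserved RNA that in mice directs the decay of miR-7. It was at 599, 690 and 761 CPM with miR-148a-3p, against 538, 408 and 455 CPM with the control. All miR-148a-3p libraries lay above all control libraries. Its log2 fold change was 0.54 (SE 0.17, 95% interval 0.19 to 0.90), or 1.46 times the control, and the edgeR adjusted p of 0.428 was the smallest among the 89 RNAs. With 1 library left out the fold change lay between 0.45 and 0.66, with adjusted p from 0.0682 upward. Its target miR-7-5p held 14.1% of microRNA counts in the wild-type library, rank 2; whether it was present in the knockout cells was not measured.

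The reads of an antisense RNA and of its sense gene cannot be told apart where they overlap, and 56 of the 85 overlap the span of another counted gene. For OIP5-AS1 there were 3261 counts over the 6 libraries and for OIP5, a centromere protein gene, 107. OIP5 had a log2 fold change of 0.18 (SE 0.56), and the sum of both had 0.53 (SE 0.17, edgeR adjusted p = 0.446). In 22 of the 68 antisense RNAs whose sense gene was listed, the antisense RNA had more counts than the sense gene. The antisense RNAs had been chosen by a minimum of total counts, and the sense genes had not. That choice favours the antisense RNA in the tally, which is a description only.

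After OIP5-AS1 the most abundant antisense RNAs were GABPB1-AS1, OTUD6B-AS1, ZFPM2-AS1, TMEM161B-AS1 and PAX8-AS1, and the means of all but ZFPM2-AS1 differed by less than the larger SD. GABPB1-AS1 averaged 159 ± 8.39 CPM with miR-148a-3p and 171 ± 25.8 CPM with the control, and OTUD6B-AS1 averaged 105 ± 12.1 and 108 ± 19.2 CPM in the same order. TMEM161B-AS1 averaged 40.4 ± 5.35 CPM with miR-148a-3p and 46.1 ± 14.2 CPM with the control, and PAX8-AS1 averaged 39.0 ± 9.20 and 41.5 ± 9.37 CPM. ZFPM2-AS1 was further apart, at 39.0 ± 9.10 CPM with miR-148a-3p and 52.0 ± 10.3 CPM with the control (−0.43, SE 0.30, edgeR adjusted p = 0.806; SD, n = 3 each).

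NR2F1-AS1 was at 30.3, 23.7 and 21.4 CPM with miR-148a-3p, all below 45.3, 37.3 and 31.9 CPM with the control (−0.57, SE 0.33, edgeR adjusted p = 0.755). Its sense gene NR2F1, a nuclear receptor, had a fold change of 0.02 (SE 0.20), and with its reads added the sum had −0.04 (SE 0.19). SLC16A1-AS1 had −0.77 (SE 0.52), and its sense gene, the lactate transporter SLC16A1, 0.18 (SE 0.18). PRR34-AS1 had 0.94 (SE 0.57) and KLRK1-AS1 0.76 (SE 0.52), each led by 1 miR-148a-3p library, at 37.9 CPM for PRR34-AS1 and 32.3 CPM for KLRK1-AS1. These last 3 averaged under 20 CPM over the 6 libraries.

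Both members were tested in 22 sense and antisense pairs. Both were lower in 9 pairs and both higher in 5, the antisense RNA alone was lower in 5 and the sense gene alone in 3. Of the sense genes 0 were called, and RASSF8 had the smallest adjusted p (−0.71, SE 0.30, edgeR adjusted p = 0.681), beside RASSF8-AS1 at −0.37 (SE 0.52). Opposite fitted signs were found for GABPB1, a subunit of the transcription factor GABP, at 0.84 (SE 0.49) beside GABPB1-AS1 at −0.11 (SE 0.20). OTUD6B had 0.20 (SE 0.30) and TMEM161B −0.48 (SE 0.29), while PAX8 with 34 counts and PRR34 with 1 count were left out by the filter. ZFPM2 and KLRK1 were listed in none of the mRNA libraries.

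**Figure D5:**
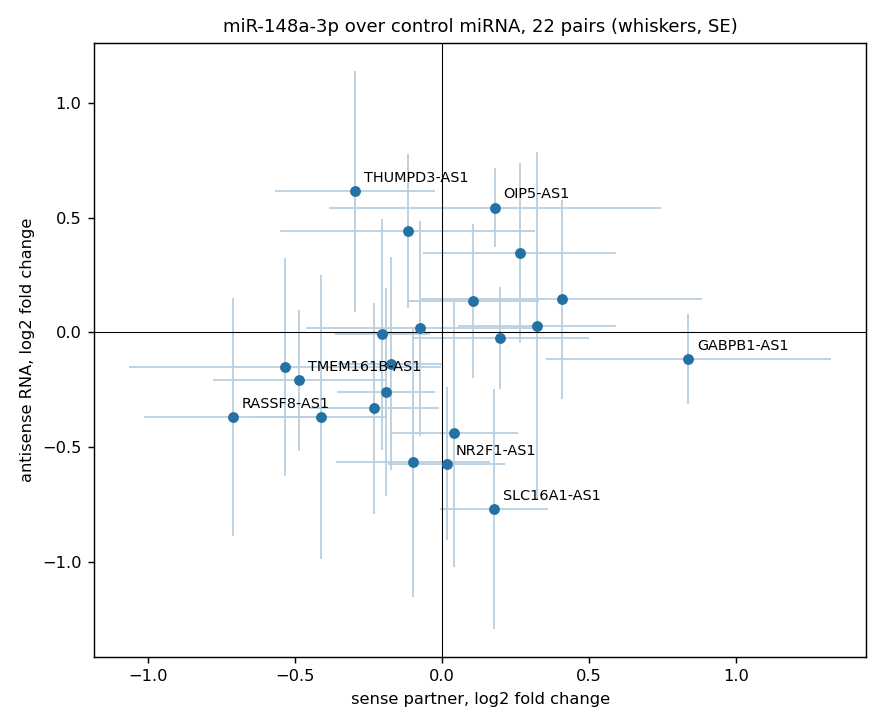
Log2 fold change, miR-148a-3p over control miRNA, of 22 antisense RNAs (vertical axis) against that of the sense gene (horizontal axis), with SE whiskers. Of the 22 pairs, 9 lie in the lower left, 5 in the upper right, 5 in the lower right and 3 in the upper left.

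LINC RNAs summed to 693, 731 and 692 CPM with miR-148a-3p, against 698, 761 and 659 CPM with the control, a log2 ratio of −0.0015. Of 21 tested, 11 had lower and 10 higher fitted values (median −0.01), and 0 were called. LINC02574 was the most abundant, at 119, 124 and 77.4 CPM with miR-148a-3p and 102, 93.3 and 58.0 CPM with the control (0.35, SE 0.25, edgeR adjusted p = 0.807). LINC00467 averaged 55.7 ± 20.2 CPM with miR-148a-3p and 61.1 ± 11.8 CPM with the control, LINC01234 averaged 54.3 ± 13.4 and 59.3 ± 12.7 CPM, and LINC02104 averaged 34.4 ± 5.75 and 37.2 ± 5.74 CPM in the same order. These 3 differed by less than their SDs.

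LINC00662 (chromosome 19, 27790493 to 27793940, minus strand) had the smallest p among LINC RNAs. It was at 29.7, 18.9 and 24.7 CPM with miR-148a-3p, against 52.0, 44.3 and 33.0 CPM with the control, with no overlap. Its log2 fold change was −0.80 with an SE of 0.33 (edgeR adjusted p = 0.681). LINC01411 was at 10.6, 4.73 and 6.59 CPM with miR-148a-3p, all below 13.5, 15.2 and 19.3 CPM with the control (−1.04, SE 0.54, adjusted p = 0.726), averaging 7.29 CPM and 16 CPM in that order. LINC00173 had −0.87 (SE 0.66), at 13.8, 1.18 and 1.65 CPM with miR-148a-3p and 15.4, 5.83 and 15.9 CPM with the control, so miR-148a-3p replicate 1 stood with the control libraries.

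On the higher side, LINC00963 was at 42.8, 42.6 and 34.6 CPM with miR-148a-3p, all above 33.7, 18.7 and 30.7 CPM with the control (0.53, SE 0.33, edgeR adjusted p = 0.776). LINC00888, which RefSeq names SNHG33, was at 19.1, 29.6 and 37.9 CPM with miR-148a-3p, all above 17.3, 16.3 and 13.7 CPM with the control (0.81, SE 0.42, adjusted p = 0.726). LINC02210 also lay lower without overlap and ENTPD1-AS1 higher, at −0.21 (SE 0.42) and 0.57 (SE 0.44), and they complete those of the 89 tested RNAs whose groups did not overlap.

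Factors of the nuclear exosome and its targeting complexes, which degrade many noncoding RNAs in the nucleus, were tested for 18 genes. Of these 11 had lower and 7 higher fitted values with miR-148a-3p, and 0 were called. EXOSC2, a cap subunit of the exosome, was at 46.1, 26.0 and 52.7 CPM with miR-148a-3p and 17.3, 19.8 and 31.9 CPM with the control (0.85, SE 0.36, edgeR adjusted p = 0.681), and the groups overlapped.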

How the data were processed

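The deposited mRNA files hold raw read counts per gene symbol, 1 file per library, and the authors applied no normalization in them; symbols missing from a file were read as 0. The deposited small RNA file holds counts per microRNA isoform, which were summed by mature name; its end offsets from the annotated ends, whole-number scores per the file header, were not used, and 2967 isoforms with a blank count were left out. The submitters' processing notes name GRCh38, STAR, Bowtie2 and cutadapt. For the counting tool and any use of strand, nothing is given in the sources used here. The members, classes and lists were chosen with earlier results of these data known. Counts were fitted for all genes with edgeR 4.0.16 in R 4.3.3 (TMM, filterByExpr by group, 8921 genes kept, quasi-likelihood F test, Benjamini-Hochberg adjustment over all genes, threshold 0.05). With 3 libraries against 3, an exact two-sided permutation test of 1 value cannot go below p = 0.1, so none was run. Library pairs within a group differed by 2.52 to 5.3 times Poisson variance (chi-square per degree of freedom), so none was merged. Wilson intervals came from scipy 1.17.1. Gene spans, microRNAs and start sites are RefSeq's for GRCh38.p14.

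Named with values are MALAT1, NEAT1, GAS5, all microRNA hosts, the 6 most abundant of each other class and the 3 with the smallest p in each direction, sense partners of those, RNAs at the limit of 30 counts, and up to 4 list genes with an unadjusted p under 0.05. Any further gene was picked with its values in view. Alternatives were DESeq2 1.42.0 (size factors and Wald test), upper-quartile factors, limma-voom (limma 3.58.1), other filters, leaving out the 10 most abundant genes, replicate number as a block, each library left out, other member minimums, the most counted member left out, added sense reads and microRNA counts divided by loci. The fit was tested on simulated counts. Of the symbols listed, 0 began with MT-.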

Additional observations from a re-analysis of the deposited data

How the results depend on the processing

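Genes called over the whole table numbered 1, against 2 with DESeq2's Wald test, 3 with limma-voom, 18 without a filter on low counts and 1 to 26 with 1 library left out. The number of long noncoding RNAs called was 0 in these settings, except 1 (SNHG7) without control replicate 1. Same-numbered libraries did not deviate together in every pair (correlations 0.13, 0.093 and −0.0019, with 4 of 6 libraries closest to their own number), and with the replicate number as a block 3 genes and 0 long noncoding RNAs were called. The summed log2 ratio of microRNA hosts was −0.16 without MIR4435-2HG, against −0.06 with it. That of antisense RNAs was 0.24 over the 20 with at least 100 counts and −0.0059 without OIP5-AS1, against 0.16. With 1 library left out, class medians ran from −0.26 to 0.13 for microRNA hosts, −0.045 to 0.055 for antisense RNAs and −0.20 to 0.12 for LINC RNAs, so their signs depended on single libraries; for the 20 antisense RNAs with at least 100 counts the median was 0.0596. For snoRNA hosts they ran from 0.029 to 0.19 and for MALAT1 and NEAT1 from −0.60 to −0.32. Fold changes of the single genes refitted with 1 library left out kept their sign, but some moved by over 1.5 times, among them MIRLET7BHG (0.01 to 0.90), KLRK1-AS1 (0.13 to 1.10), PRR34-AS1 (0.21 to 1.33), MIR31HG (−1.41 to −0.32) and LINC00173 (−3.04 to −0.46). Depth limits the RNAs under 20 CPM most.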
